A study of Rattus norvegicus with 2 samples.

Results

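Adenosine is a local signal that relaxes most resistance arteries, and this account follows the genes that make, carry, sense and remove it in the rat small mesenteric artery. The set was given as 7 genes: Adk, Slc29a1, Nt5e and the receptor genes Adora1, Adora2a, Adora2b and Adora3. Members were all probe sets of the array that the platform annotation names with 1 gene symbol of that set. This gave 5 probe sets, 1 each for Adk, Slc29a1, Adora1, Adora2a and Adora2b, or 5 of the 4736 genes so named on the array. The set was picked because Adk was more than 2-fold lower in portal hypertension, so the Adk difference is described here and supports nothing else. The rule gave no probe set for Nt5e, the gene of the enzyme that makes adenosine from AMP at the cell surface, which was not analysed here. Adora3 is named on 3 further probe sets, but each lists the symbol under 2 gene identifiers, so these stand apart from the members.

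RNA was measured in mesenteric arteries of the first and the second order from rats after a sham operation, the control group, and from rats made portal hypertensive by tying the portal vein partly shut upstream of the liver. Each group was a single pool of total RNA from 20 rats read on 1 Affymetrix RG_U34A array, and the sources used here do not give strain, sex, age or time after surgery. With 1 array per group there is no replicate, test or standard error, so precision is limited by the number of arrays. The signals are linear intensities as deposited, and a floor of 330.9 intensity units, the 40th percentile of both arrays without control probe sets, separates values called measured from those too low to compare. Of 8740 probe sets that are not controls, 4960 lay above the floor in both pools. The only scatter the data offer is that between probe sets of one gene. Over 789 genes with several measured probe sets (1801 in all), log2 ratios of portal hypertensive over sham had a pooled SD of 0.30 within a gene, which says nothing of differences between rats.

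Adenosine kinase phosphorylates adenosine to AMP inside the cell and is the main route by which cells keep adenosine low. Equilibrative nucleoside transporters let adenosine cross the membrane down its gradient, so uptake into the cell depends on both transport and phosphorylation. At the surface, the receptors encoded by Adora2a and Adora2b raise cyclic AMP and relax vascular smooth muscle, whereas those of Adora1 and Adora3 couple to inhibitory G proteins. Dilatation of the gut arteries in portal hypertension raises the inflow of blood into the portal vein.

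Adk was the only member at least 1.5-fold apart between the pools, as were 8.49% of the 4960 measured probe sets. Its probe set U57042_s_at gave a sham signal of 3731 and a portal hypertensive signal of 1634. Both values lay well clear of the floor, at 11.3 and 4.94 times it. The portal hypertensive signal was 43.8% of the sham signal, a log2 ratio of -1.19 or a 2.28-fold difference. Adk had the 24th lowest ratio (rank 24) of the 4960 measured probe sets. Of these, 45 (0.907%) were at least 2-fold lower and 22 (0.444%) at least 2-fold higher, and this background used the same contrast that picked Adk. With each array divided by its median, the split turned to 35 lower and 42 higher, and Adk had a log2 ratio of -1.11. Among the 841 measured probe sets whose mean log2 level lay within 0.5 of that of Adk, the SD of the log2 ratio was 0.33, 7 were at least 2-fold lower, 2 at least 2-fold higher, and 4 were lower than Adk. The scatter of ratio against level shows Adk apart from the main body of points at its level and the other members inside it. The suffix _s_ marks a probe set that can be shared by several transcripts, and with 1 probe set for the gene its direction has no second reading on the array.

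**Figure D1:**
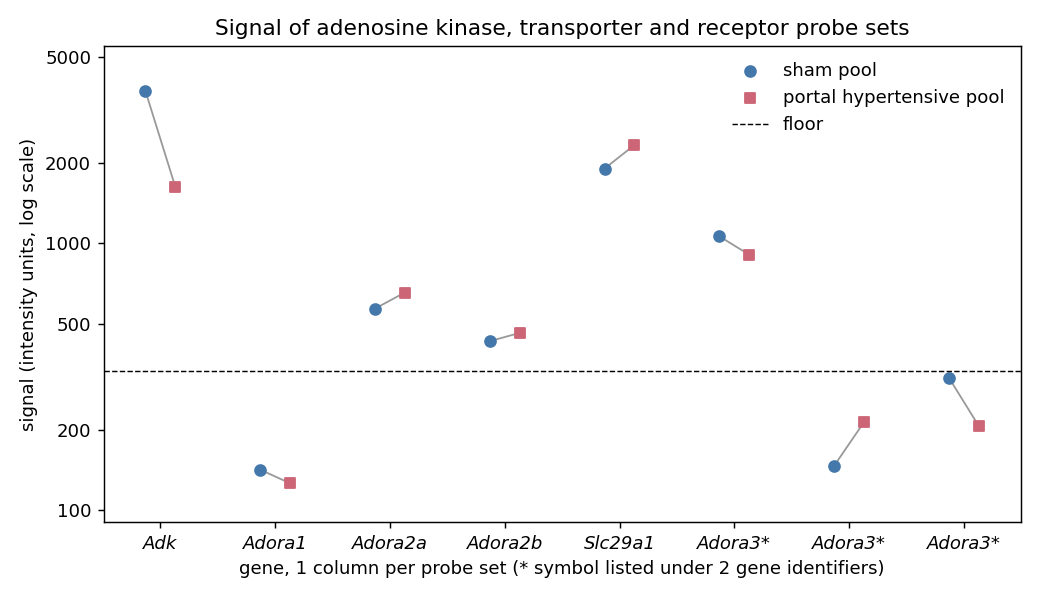
Signal in intensity units on a log axis for each probe set of the adenosine genes, with a circle for the sham pool, a square for the portal hypertensive pool and a dashed line for the floor of 330.9. Each point is 1 array of a pool of 20 rats; Adk lies at 3731 and 1634, and the other 4 members lie close to level between the pools.

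**Figure D2:**
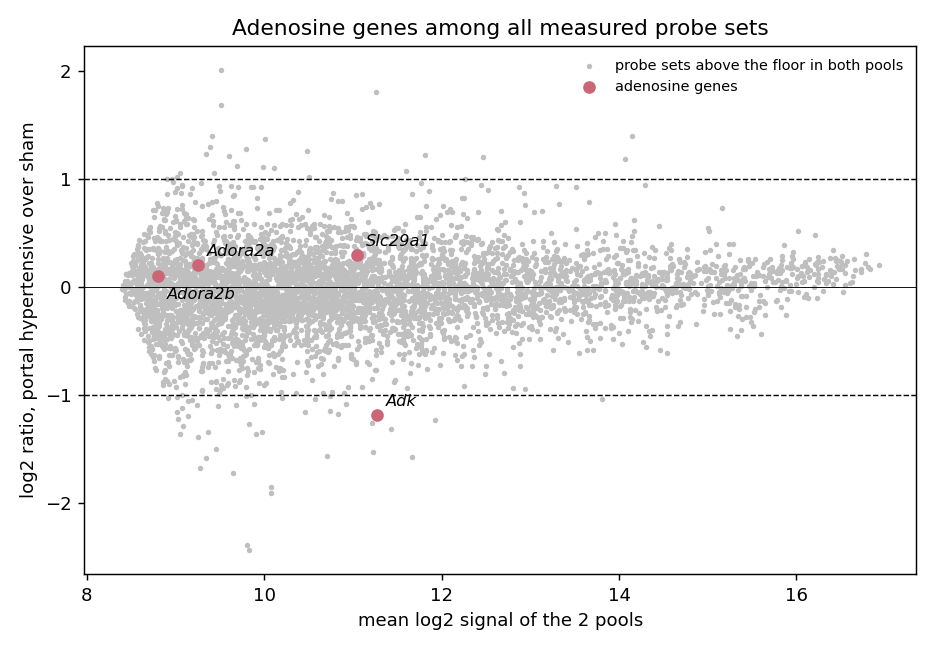
Log2 ratio of portal hypertensive over sham against the mean log2 signal of both pools for the 4960 probe sets above the floor in both, with dashed lines at 2-fold. Adk lies at -1.19 below the lower line, and Slc29a1, Adora2a and Adora2b lie between 0.10 and 0.29.

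The transporter gene Slc29a1, which encodes the equilibrative nucleoside transporter ENT1, was slightly higher in the portal hypertensive pool. Its probe set AF015304_at gave 1908 for sham and 2338 for portal hypertension, a log2 ratio of 0.29. This is close to the pooled within-gene SD of 0.30. Among probe sets brighter than the median level, which include this one, the within-gene scatter was smaller, at 0.21, and the Slc29a1 ratio exceeded it. The array also measured the other equilibrative transporter gene Slc29a2 and the concentrative, sodium-driven transporter genes Slc28a1 and Slc28a2, which are named here after their values were seen. Slc29a2 gave 1780 and 1400, a log2 ratio of -0.35. Slc28a1 gave 1034 and 822.4, a log2 ratio of -0.33, and Slc28a2 gave 2276 and 1767, a log2 ratio of -0.37. Thus 3 of the 4 nucleoside transporter genes were lower and Slc29a1 was higher, while 53.2% of all genes with a value were below 0. The log2 ratios of Slc29a1 and Slc29a2 lay 0.64 apart, against 0.42 for the SD expected of a difference between 2 probe sets. None of the 4 reached 1.5-fold, as 8.18% of all genes with a value did. With 4 genes, these counts are not a result about the transporters.

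The receptor genes differed little. Adora2a, for the higher-affinity receptor of the pair that raises cyclic AMP, gave 569.2 for sham and 654.2 for portal hypertension on S47609_s_at, a log2 ratio of 0.20. Adora2b, for the lower-affinity receptor, gave 429.7 and 461.5 on M91466_at, a log2 ratio of 0.10. Both signals were less than 2 times the floor, and among measured probe sets below the median level the SD between probe sets of a gene was 0.37, so neither difference could be told from that scatter. Adora1, for a receptor that lowers cyclic AMP, gave 141.7 and 126 on M64299_at. Both signals lay under the floor, so no ratio is given. A signal below the floor does not show that the receptor mRNA was absent from the vessel. On the far side of the 2-fold mark that picked Adk, the member next to it was thus Adora2b at 0.10, and no other measured member had a ratio below 0. This leaves out Adora3, which stands apart from the members and had -0.23 on its measured probe set.

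The 3 probe sets that carry the Adora3 symbol under 2 identifiers did not give a common picture. One, AF102804_s_at, gave 1062 for sham and 906.6 for portal hypertension, a log2 ratio of -0.23. The other 2 stayed under the floor throughout, at 146.6 and 213.7 on X59249_s_at and at 313.1 and 206.5 on X93219cds_s_at. The deposited signals of these 2 probe sets went opposite ways. Adora3 mRNA is known from rat mast cells. The mast cell protease genes Cma1 and Cpa3 were higher in the portal hypertensive pool, with log2 ratios of 1.20 and 0.82, while the tryptase gene Tpsb2 had -0.37; their part in the Adora3 signal was not tested.

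Beyond the members, a list of 52 genes of adenosine and purine handling had 26 genes on the array and 23 with a value, meaning a probe set above the floor in at least 1 pool. Of these 23, 9 were above 0 and 14 below, and 0 reached 1.5-fold, whereas 8.18% of all 3351 genes with a value did. That count of 0 depends on the setting: it was at most 2 under the alternatives tried, made up of Ahcy, Entpd2 or Ppat, which lie next to the mark. The list median was -0.14, beside -0.02 over all genes, of which 53.2% were below 0. Ahcy, whose enzyme splits S-adenosylhomocysteine into adenosine and homocysteine, had the highest ratio, at 1233 and 1843 (log2 ratio 0.58), just short of 1.5-fold, and passed it at 0.66 with median scaling, 0.62 after quantile normalization and 0.61 after the loess. Prps1, which makes the ribose phosphate donor of purine synthesis, gave 3098 and 2107, a log2 ratio of -0.56. Uox, urate oxidase, had -0.54 on 1 probe set, and its other 2 were below the floor in both pools. Entpd2, a surface enzyme that breaks down ATP, gave 1852 and 2535 where both pools were measured (log2 ratio 0.45), while a further probe set passed the floor in the portal hypertensive pool only.

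Grouped by role, a grouping made after the values were seen, the genes of the purine list went both ways. Of 6 genes for enzymes that break down nucleotides and phosphate esters outside the cell, 4 were above 0 and 2 below, from -0.48 for Enpp1 to 0.54 for Entpd2 over its 2 probe sets. Of 4 genes grouped as building of the purine ring, 3 were below 0, beside 53.2% of all genes with a value. Of these, Prps1 and Prps2, the latter at -0.50, make the ribose phosphate donor and not the ring itself. Ppat was above the floor in the sham pool only. The fourth, Atic, had 0.26 on its measured probe set and went the opposite way on the other. The salvage genes that return free bases to nucleotides did not share the Adk difference: Aprt, which salvages adenine, gave 13239 and 16816, a log2 ratio of 0.34, and Hprt1 had -0.06 over 2 probe sets. Of the adenylate kinase and AMP deaminase genes, Ak3, a mitochondrial kinase, gave 9014 and 6282, a log2 ratio of -0.52, Ak4 had -0.06 and Ampd3 was above the floor in the sham pool only. Apart from Adk, none of these genes reached 1.5-fold as deposited. Lowering the floor to the 20th percentile took Ppat to -0.69, past 1.5-fold. Entpd2 passed it under 4 of 7 alternatives, with 0.62 when shared probe sets were left out and 0.60 after median scaling. The 0.62 is that of the probe set whose sham signal of 307.1 was set to the floor. With the brightest probe set, or the floor at the 60th percentile, Entpd2 had 0.45.

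**Figure D3:**
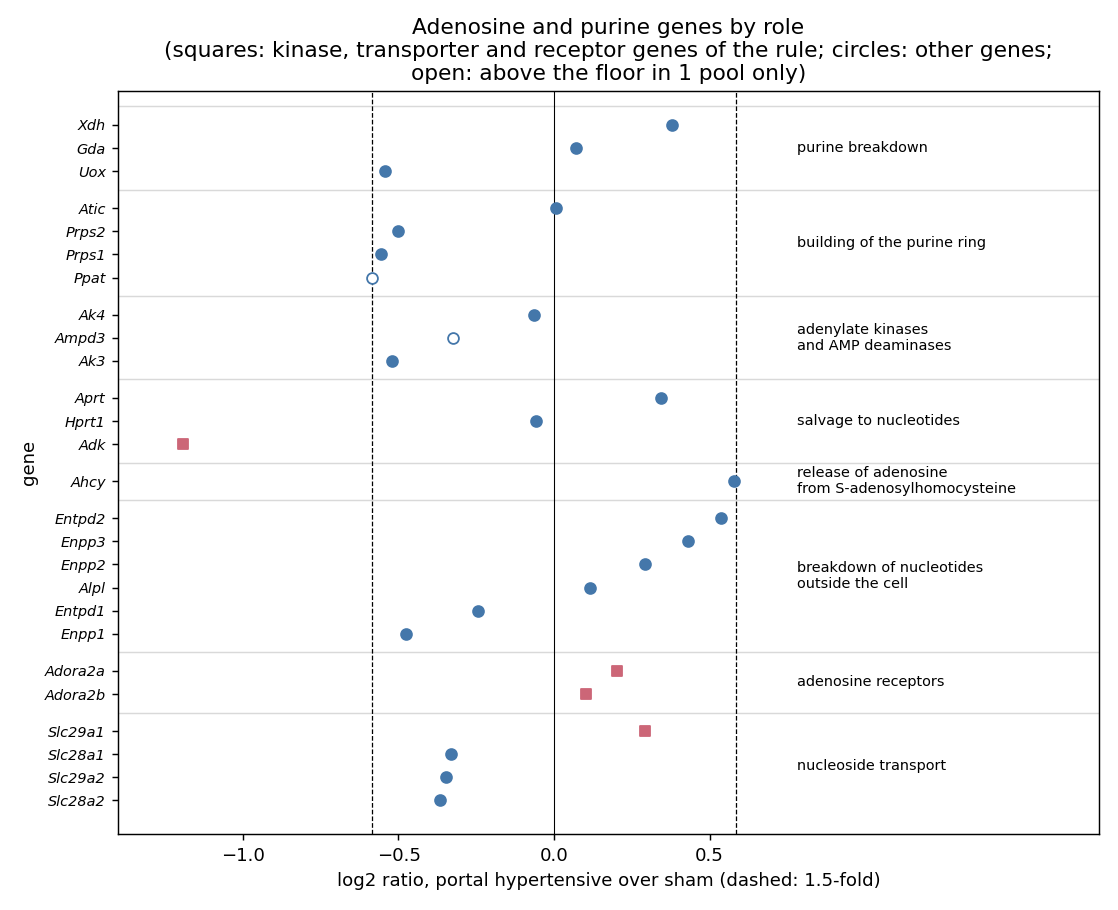
Log2 ratio of portal hypertensive over sham for adenosine and purine genes with a value, ordered by role, with squares for Adk, Slc29a1, Adora2a and Adora2b, circles for other genes, open symbols for genes above the floor in 1 pool only and dashed lines at 1.5-fold. With the values as deposited, Adk at -1.19 is the only gene outside the dashed lines; Ahcy at 0.58 and Ppat lie next to them.

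Genes of the methyl cycle, in which transmethylation yields S-adenosylhomocysteine, were mostly below 0 as listed. The list leaves out Ahcy, also a gene of this cycle, which was counted in the purine list and had 0.58. Of 22 listed genes 12 were on the array and 7 had a value, 5 below 0 and 2 above, with a median of -0.20 and 0 at 1.5-fold. Over all genes with a value, 53.2% were below 0, the median was -0.02 and 8.18% reached 1.5-fold. With so few genes, a count of 0 is not a result about the list. Amd1, which commits S-adenosylmethionine to polyamine synthesis, gave 2263 and 1556, a log2 ratio of -0.54. Pemt, a phospholipid methyltransferase, had -0.47, Gnmt, the glycine methyltransferase, -0.39 on 1 of its 3 probe sets, and Mat2a, which makes S-adenosylmethionine outside the liver, -0.20.

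Receptors for ATP and other nucleotides, the precursors of extracellular adenosine, also leaned below 0 by small amounts. Of 16 listed genes 13 were on the array and 9 had a value, 7 below 0 and 2 above, with a median of -0.11 and 0 at 1.5-fold. These counts stand beside 53.2% of all genes with a value below 0 and 8.18% at 1.5-fold. P2rx1, the ATP-gated channel of vascular smooth muscle that serves sympathetic constriction, gave 21139 for sham and 16985 for portal hypertension, a log2 ratio of -0.32. P2ry6, a uridine nucleotide receptor, had -0.28, P2ry14 -0.19 and P2ry12 -0.14, all smaller than the SD between probe sets.

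Downstream of the receptors, 17 of 27 listed genes of G protein coupling, cyclic AMP and ATP-sensitive potassium channels had a value, 8 above 0 and 9 below, with a median of -0.18. One, Creb1, the transcription factor that cyclic AMP signalling phosphorylates, passed 1.5-fold, at 522.7 and 339.9 (log2 ratio -0.62), the latter signal close to the floor, and it fell short of 1.5-fold at -0.54 with median scaling and also after quantile normalization. Creb1 had no value with the floor at the 60th percentile, which both signals lie under, or with shared probe sets left out, as its only probe set is shared. Kcnj11, a channel subunit gene, went the opposite way, with a gene value of 0.36. Its probe set measured in both pools gave 360.4 and 596.8 (log2 ratio 0.73). Its other probe set passed the floor in the sham pool only. Kcnj11 was called after quantile, loess and median scaling, when its brightest probe set stood for the gene, and without shared probe sets. Each of these calls rests on the same single probe set, with the other left out, so they are not separate readings. Changing the floor did not bring it past 1.5-fold. As deposited, Creb1 is the 1 gene of 17 called, beside 8.18% of all genes with a value. Abcc9, the sulphonylurea receptor subunit of the vascular potassium channel, had -0.02 and -0.54 on its measured probe sets. A further Abcc9 probe set gave 640.5 for sham and 219.3 for portal hypertension, above the floor in the sham pool only. Prkar2b, a regulatory subunit of protein kinase A, had -0.53, and Gnao1, an inhibitory-type G protein alpha subunit, -0.45 on its measured probe set. Gnas, the G protein subunit that couples the Adora2a and Adora2b receptors to adenylyl cyclase, gave 55111 and 60205 on its brightest probe set, a log2 ratio of 0.13, and was picked after its values were seen. Of the AMP-activated kinase and creatine kinase genes 4 of 10 had a value, with 0 at 1.5-fold beside the same 8.18% of all genes. Both creatine kinase genes among them were above 0, Ckm at 0.25 and Ckb at 0.15 and 0.30 on 2 probe sets, and Prkag1, the regulatory subunit that binds AMP, had -0.23.

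By Euclidean distance of the log2 signals in both pools, the named probe sets nearest to Adk were those of Ate1 (distance 0.25), Cebpd (0.25), Rara (0.25) and Mapre1 (0.30). Ate1, an arginyltransferase gene, gave 4363 and 1748, and Cebpd, a transcription factor gene, 3196 and 1768. Rara, the retinoic acid receptor alpha gene, gave 4061 and 1402, and Mapre1, a microtubule end-binding protein gene, 3180 and 1858. Likeness over 2 arrays describes a level and a ratio only.

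Fewer cells of a type and less RNA per cell cannot be told apart in pooled vessel RNA, so the marker genes of the cell types were set beside the Adk value. Of 8 smooth muscle markers 7 were on the array and all 7 were above the floor in both pools, led by Tagln, Myh11 and Tpm2. Of these 7 genes, 5 were below 0, and Kcnmb1, a potassium channel subunit gene, had -1.04 and -0.33 on its probe sets. The signal summed over the brightest probe set of each gene was 307513 for sham and 291944 for portal hypertension. Endothelial markers were above the floor for Pecam1, Thbd, Nos3 and Icam2 and below it for Kdr and Vwf, with sums of 8485 and 6986. All 4 endothelial genes with a value were below 0, with a median log2 ratio of -0.44, and 2 of them, Icam2 and Nos3, were at least 1.5-fold lower. Over all genes with a value, 53.2% were below 0 and 8.18% were at least 1.5-fold apart. Icam2, an adhesion molecule gene, gave 796.1 and 364.7, the latter close to the floor, a log2 ratio of -1.13. Nos3, the endothelial nitric oxide synthase gene, had -0.78, -1.20 and 0.25 on the 3 probe sets above the floor in both pools. The adipocyte sum was 60546 and 72627, the macrophage sum 42166 and 52453, and the mast cell sum 11213 and 18272, with 6, 5 and 6 genes with a value and with Plin1, Csf1r and Ms4a2 below the floor in both pools. The genes within each type went both ways: 4 above 0 and 2 below for adipocytes, 4 and 1 for macrophages, and 4 and 2 for mast cells. The nerve sum was 22122 and 18034, mostly Npy, with Dbh, Nefl and Syt1 below the floor, and the lymphocyte sum 4220 and 3722, with Cd2, Cd5 and Cd8a below it. In each of these 2 types, 2 genes with a value were above 0 and 2 below. Of 8 hepatocyte markers, Fgb and Tat were below the floor, 3 of 6 genes with a value were above 0 and the sum was 4365 and 3900, while Cyp2c11, a liver hydroxylase gene, gave 886.5 and 184.3 on the probe set that passed the floor in the sham pool only. The part of these markers in the Adk value was not tested.

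The hybridisation records put the labelled cRNA, with a question mark, at 17 µg (sham) and 12.5 µg (portal hypertension), with a different fluidics module for each array. With 1 array each, cRNA amount, module and operation cannot be told apart. The ratio of 3' to 5' signal was 2.05 (sham) and 1.79 (portal hypertension) for beta-actin, and 1.83 and 1.85 for GAPDH.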

How the data were processed

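Total RNA of the small mesenteric artery was read on 1 RG_U34A array per pool, per the file headers. The authors deposited a linear intensity for each probe set of each array. How they scaled it, subtracted background and with which software is not stated by the labels or headers used here. The hybridisation records, other deposited text read here, hold no probe set values. The means after leaving out the lowest and highest 2% were 2504.33 and 2504.38, so values were used as deposited. Values under the floor were set to it before log2. The platform annotation gave 1 symbol to 7006 probe sets that are not controls; updating through a RefSeq table (GRCr8) altered 0 of them. The array files name no build, so coordinates were left out.

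The value of a gene is the median log2 ratio over its probe sets above the floor in at least 1 pool. The ratio has no test. Counts used 2-fold for probe sets and 1.5-fold for lists. Named genes were all members; in each pathway list, genes at least 1.5-fold apart with a probe set measured in both pools, filled up to 4 by absolute ratio; up to 3 brightest markers per cell type; and the 4 probe sets nearest to Adk. Others are said to be chosen after their values were seen, as were Slc29a2, Slc28a1, Slc28a2, Icam2, Kcnmb1, Cyp2c11 and the genes of the role grouping. Members and lists were chosen with earlier results of these data known. The procedure was run on simulated data with planted differences above 2-fold and less noise than the scatter between probe sets of a gene. That run checks the counting steps and not how reliable these ratios are. Alternatives were quantile, loess (span 0.4) and median scaling, floors at the 20th and 60th percentiles, the probe set of highest level, and leaving out shared probe sets. That last setting dropped all probe sets with the suffix _s_, _f_, _i_, _r_ or _g_, a wider class than _s_ alone. Python 3.11.15, pandas 2.3.3, numpy 2.4.6, statsmodels 0.14.6 and matplotlib 3.10.9 were used.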

Additional observations from a re-analysis of the deposited data

How the results depend on the processing

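The Adk log2 ratio was between -1.19 and -1.11 under the 5 alternative scalings and floors, and Slc29a1 was between 0.29 and 0.38 under 7. Adk and Adora2a have only a shared probe set, so leaving out shared probe sets gives them no value, and with the floor at the 60th percentile Adora2a and Adora2b have none. No member other than Adk reached 1.5-fold under any alternative run. The counts behind the background moved. With the floor at the 20th percentile, 301 probe sets were at least 2-fold apart, 132 higher and 169 lower, and with the floor at the 60th percentile 22 were, 8 higher and 14 lower. Dividing the arrays by their medians gave 42 higher. Raising the floor to the 60th percentile gave the purine list a median of 0.0054, taking only the brightest probe set of a gene gave the receptor coupling list 0.0028, and the AMP-activated kinase list ranged from -0.19 to 0.22, so the sign of these 3 medians depends on the setting. A floor at the 20th percentile also brought 2 methyl cycle genes, 1 nucleotide receptor gene and 1 AMP-activated kinase gene past 1.5-fold, with 15.1% of all genes past it in that setting. The methyl cycle median was -0.02 with that floor, the same as the median of all genes there. No paired analysis was possible because each group is 1 array. Signal near the floor limits the receptor genes, and the number of arrays limits every value.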
